A study of Mus musculus with 9 samples.

Results

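The miRNAs described are 5 mature arms cut from 3 hairpins of the mouse genome: mmu-miR-126a-3p and mmu-miR-126a-5p from Mir126a, mmu-miR-143-3p from Mir143, and mmu-miR-145a-5p and mmu-miR-145a-3p from Mir145a. They were chosen by name, as arms known from the vessel wall, and all 5 were found among the 1448 mature miRNAs counted. All 5 also passed the filter on low counts, which left 628 miRNAs for testing. Small RNA was sequenced from the hippocampus of C57BL/6J mice in 9 libraries, with 3 per group (saline, LPS, and LPS + GAS). Mice of the saline group received 0.9% saline, and mice of the LPS group received lipopolysaccharide (LPS), a bacterial endotoxin, in 1 intraperitoneal dose of 1 mg/kg, with 0.12% saline by the labels. Mice of the LPS + GAS group received the same LPS and gastrodin (GAS), a phenolic glucoside of Gastrodia elata, at 100 mg/kg, 1 h after LPS by the labels. The methods describe male animals, and they also have GAS given at the time of LPS, so the order of the injections remains unclear. The labels give neither the age of the mice nor the time at which tissue was taken, and it is not stated whether a library is a single mouse, so p-values measure the spread between these libraries.

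A miRNA hairpin is cut by Drosha and Dicer into a short duplex, of which 1 arm is usually kept in Argonaute and the other mostly degraded. The kept arm finds its target mRNAs mainly through its seed, bases 2 to 8. MiR-126 is a defining miRNA of endothelial cells, where it acts on vascular endothelial growth factor signalling and vessel integrity. MiR-143 and miR-145 are made from a shared primary transcript and are best known from vascular smooth muscle, where they maintain the contractile state. In the brain these miRNAs are therefore read as products of vessels, which form a small share of the tissue. In bulk tissue, fewer cells of a type and less RNA per cell cannot be told apart.

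Sequences of the Mir126a locus are shown because both arms of this hairpin were counted and because a second hairpin, Mir126b, lies on the opposite strand. Capitals mark the seed in the mature sequences and the arms in the hairpin, all written 5′ to 3′. The 2 arms of Mir126a have different seeds.
mmu-miR-126a-3p: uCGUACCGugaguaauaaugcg
mmu-miR-126a-5p: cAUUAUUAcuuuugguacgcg
mmu-miR-126b-3p: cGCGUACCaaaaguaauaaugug
mmu-miR-126b-5p: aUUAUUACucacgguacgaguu
Mir126a hairpin: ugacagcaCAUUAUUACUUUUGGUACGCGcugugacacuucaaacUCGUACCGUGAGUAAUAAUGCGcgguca
Sequences were taken from the deposited table and matched those of RefSeq on GRCm38.p6, except that of mmu-miR-126a-5p, which was placed by its match within the hairpin. The 3p arm lies at chr2:26591402-26591423 and the 5p arm at chr2:26591365-26591385, both on the plus strand. No other miRNA of the table shared a seed or a whole sequence with any of the 5 arms, so their reads could not be divided with a copy of the same sequence.

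The Mir126a hairpin, 73 bases at chr2:26591357-26591429, lies within Egfl7, a gene of endothelial cells for a secreted protein of vessel formation. In GENCODE M21, Egfl7 spans chr2:26580014-26593120 on the plus strand, and 9 of its 19 transcripts span the hairpin. In 8 of these the hairpin is intronic, within an intron of 600 bases (chr2:26591064-26591663) or, in 2 transcripts, of 1054 bases. In the other, a transcript with a retained intron, the hairpin lies in an exon. Mir126b lies within the same stretch on the minus strand, and its arms are complementary to those of Mir126a at 21 of 21 overlapping bases for miR-126b-3p and at 19 of 19 for miR-126b-5p.

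The opposite strand gave almost no reads. The saline libraries had 2, 0 and 1 reads of miR-126b-3p, the LPS libraries 5, 4 and 4, and the LPS + GAS libraries 0, 1 and 0. MiR-126b-5p had 0 reads in all 9 libraries, which allows a level of up to 0.262 to 0.296 CPM (counts per 1000000 reads of a library), taking 3 reads as the limit. The reads given to miR-126a thus sit beside at most 5 reads from the overlapping hairpin.

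Mir143 and Mir145a lie on chromosome 18, on the minus strand, at chr18:61649196-61649258 and chr18:61647825-61647894, with 1301 bases between them. The RefSeq gene Carmn, a long non-coding RNA known as the host of this cluster, spans both hairpins (61645878 to 61665538). The GENCODE M21 model of Carmn (61649625 to 61665537), also on the minus strand, ends before reaching them and spans neither. The other arm of Mir143, miR-143-5p, was counted at 0 to 3 reads per library, so that Mir143 was represented by its 3p arm. MiR-145b was not analysed here.

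The libraries held 10119758 to 11457656 reads on miRNAs and 1008 to 1046 miRNAs with at least 1 read. Levels are given as CPM with library totals scaled by edgeR's TMM factors (0.914 to 1.19, highest in LPS replicate 2). All 3 neuronal marker miRNAs were detected. Their summed levels were 76500 to 95251 CPM after saline, 96489 to 108951 CPM after LPS and 86375 to 117874 CPM after LPS + GAS. Every LPS library was thus above every saline library in this sum, though 0 of the 3 miRNAs separated these groups alone. Of the 628 tested miRNAs, 3.82% did so. The sum rested mainly on miR-124-3p, at a mean of 66032 CPM, with miR-9-5p at 21495 CPM and miR-128-3p at 9013 CPM. Their log2 fold changes in LPS vs saline were 0.35, -0.13 and 0.24. A miRNA was called changed at an adjusted p of at most 0.05 in edgeR's quasi-likelihood test when its log2 fold change was also 1 or more in size. By this rule 0% of the 628 miRNAs were called between LPS and saline and 0% between LPS + GAS and LPS. Between LPS + GAS and saline it was 0.159%, where the 1 called miRNA was miR-21a-3p, named after its values were seen. At an unadjusted p under 0.05 there were 15, 23 and 21 miRNAs, DESeq2 called 1, 0 and 1, and limma voom called 0, 0 and 1.

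The vascular miRNAs covered a wide range of levels. The arms are 21 to 23 bases long, so their reads were set side by side without a correction for length. Ligation and amplification can favour some sequences, and reads are not shown to be independent molecules. The table's exp value, whose meaning is not stated, is 50.6% to 56.1% of the reads for miR-126a-3p. For miR-145a-5p it is 98.8% to 100%. MiR-126a-3p was the most abundant, at 15089 ± 1283 CPM (SD, n = 9), and ranked 16th to 20th among all miRNAs of a library. MiR-143-3p followed at 4003 ± 939 CPM, miR-126a-5p at 497 ± 111 CPM, miR-145a-5p at 96.3 ± 54.8 CPM and miR-145a-3p at 16.3 ± 2.66 CPM. This order was the same in each of the 9 libraries, and no neighbours in it overlapped in CPM.

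The endothelial arm miR-126a-3p was the steadiest of the 5. In the saline group 174772, 159252 and 160638 reads were counted, or 16695, 14084 and 16190 CPM. The LPS group had 13542, 12998 and 16098 CPM, and the LPS + GAS group 15648, 15587 and 14956 CPM. The LPS group held both the lowest value and a value within the range of the saline group, and the 3 groups overlapped. LPS replicate 2, the lowest in CPM, had the highest TMM factor (1.19). Of its reads 1.55% were miR-126a-3p, within the 1.31% to 1.57% of all libraries. The SD of miR-126a-3p within groups was 0.12 on the log2 scale, at the 2.55th percentile of the 628 miRNAs, whose median was 0.35.

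The partner arm miR-126a-5p, the less abundant product of the same hairpin, was more variable. Saline libraries held 446, 579 and 499 CPM. Those of the LPS group held 592, 329 and 693 CPM, and those of the LPS + GAS group 411, 419 and 506 CPM. The lowest and the highest of the 9 values were both in the LPS group, in replicates 2 and 3. Its SD within groups was 0.36 on the log2 scale, at the 53.0th percentile.

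MiR-143-3p, the main product of the smooth muscle cluster, was at 5638, 3855 and 3351 CPM after saline. It was at 3288, 2918 and 3822 CPM after LPS and at 3794, 3890 and 5471 CPM after LPS + GAS. Saline replicate 1 and LPS + GAS replicate 3 stood above the other 7 libraries, which lay between 2918 and 3890 CPM. The SD within groups was 0.30 on the log2 scale, at the 41.6th percentile.

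MiR-145a-5p, the arm of Mir145a that is usually taken as the functional one, had a spread within groups of 0.82 on the log2 scale, at the 91.4th percentile of all tested miRNAs. After saline its levels were 115, 78.1 and 55.0 CPM, after LPS 59.7, 162 and 58.9 CPM, and after LPS + GAS 208, 54.4 and 75.7 CPM. LPS replicate 2 and LPS + GAS replicate 1 were higher than every other library. These 2 libraries had 1951 and 2224 reads, against 538 to 1204 reads in the other 7.

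MiR-145a-3p, the other arm of the hairpin, was at 17.4, 14.1 and 13.6 CPM after saline, 16.8, 12.8 and 16.2 CPM after LPS, and 17.0, 16.8 and 21.8 CPM after LPS + GAS. It rested on 135 to 226 reads a library. Of the libraries high in the 5p arm, LPS replicate 2 had the lowest 3p level (12.8 CPM). LPS + GAS replicate 1 (17.0 CPM) lay within the range of the remaining libraries. The SD within groups was 0.21 on the log2 scale, at the 16.4th percentile.

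**Figure D1:**
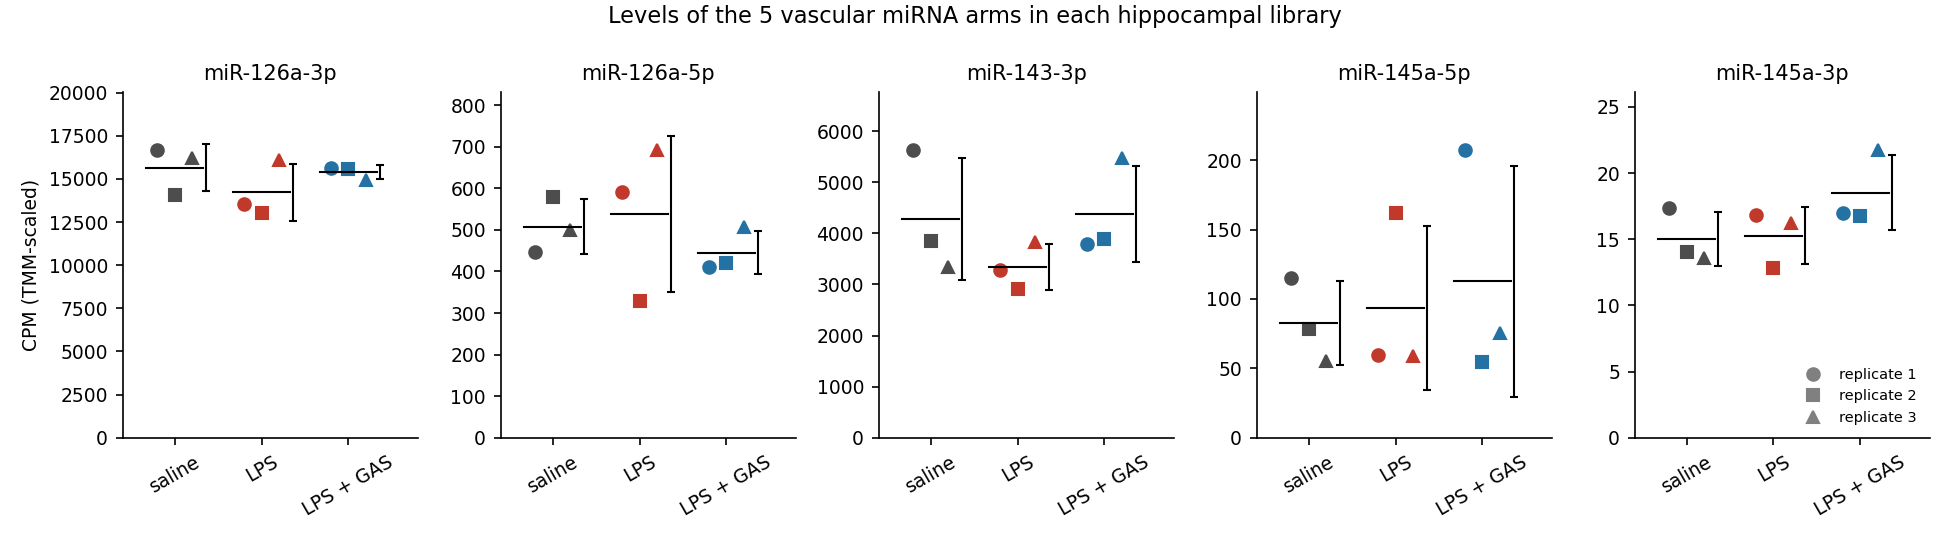
Level in CPM (TMM-scaled, linear axes from 0, 1 panel per arm) of the 5 arms in each library by group; symbols mark the replicate, horizontal lines the mean and bars the SD. The groups overlap in all 5 panels, and LPS replicate 2 and LPS + GAS replicate 1 stand above the other libraries in miR-145a-5p, at 162 and 208 CPM.

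The first comparison asked whether LPS changed these miRNAs. Of the 5 arms, 0 were called in LPS vs saline, where 0% of all miRNAs were called. Group values did not separate for any of the 5 arms, while they separated for 3.82% of the 628 miRNAs. MiR-143-3p was at 3343 ± 455 CPM after LPS against 4282 ± 1202 CPM after saline (SD, n = 3 each), a log2 fold change of -0.36 (SE 0.23, 95% interval -0.88 to 0.17, edgeR adjusted p = 0.992). Without saline replicate 1, its highest library, the value was -0.067. MiR-126a-3p was at 14212 ± 1655 against 15656 ± 1385 CPM, a log2 fold change of -0.14 (SE 0.14, 95% interval -0.46 to 0.18, edgeR adjusted p = 0.992). These were differences within the spread of the libraries, and the interval of miR-126a-3p reaches from 0.727-fold to 1.13-fold. The log2 fold changes of the remaining arms were 0.083 for miR-126a-5p, 0.18 for miR-145a-5p and 0.023 for miR-145a-3p. Without LPS replicate 2, that of miR-145a-5p was -0.45.

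The second comparison asked whether GAS changed their levels after LPS. In LPS + GAS vs LPS, 0 of the 5 arms were called (0% of all miRNAs), and 0 of 5 separated the groups, against 8.6% of all miRNAs. MiR-143-3p was at 4385 ± 942 CPM in the LPS + GAS group, a log2 fold change of 0.39 over the LPS group (SE 0.23, 95% interval -0.13 to 0.91, edgeR adjusted p = 0.903). Of its 3 LPS + GAS libraries, 2 were above all LPS libraries and the lowest was 3794 CPM, just under LPS replicate 3. Without LPS + GAS replicate 3 the value was 0.22. MiR-126a-3p had a log2 fold change of 0.12 (SE 0.14, 95% interval -0.21 to 0.44, edgeR adjusted p = 0.975). MiR-126a-5p was at -0.27 (95% interval -0.86 to 0.31) and miR-145a-3p at 0.28 (95% interval -0.20 to 0.76), and both intervals include 0. MiR-145a-5p stood at 0.27, a value that was -0.53 without LPS + GAS replicate 1 and 0.93 without LPS replicate 2.

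The last comparison set the LPS + GAS group against the saline group. Again 0 of the 5 arms were called (0.159% of all miRNAs) and 0 of 5 separated the groups (7.32% of all miRNAs). MiR-143-3p differed by a log2 fold change of 0.034 (SE 0.23, 95% interval -0.49 to 0.56) and by -0.11 without saline replicate 3 and 0.33 without saline replicate 1. MiR-126a-3p was at -0.024 (SE 0.14, 95% interval -0.34 to 0.30), a sign that turned with DESeq2's size factors (0.036), among other alternatives. MiR-126a-5p was at -0.19 and miR-145a-3p at 0.30. MiR-145a-5p had a log2 fold change of 0.44 (SE 0.56, 95% interval -0.81 to 1.70), and of -0.30 without LPS + GAS replicate 1. Across the 3 comparisons, which share groups with each other, 12 of the 15 intervals lay within a log2 fold change of 1 in either direction. The 3 that did not were those of miR-145a-5p, which reach past that size.

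**Figure D2:**
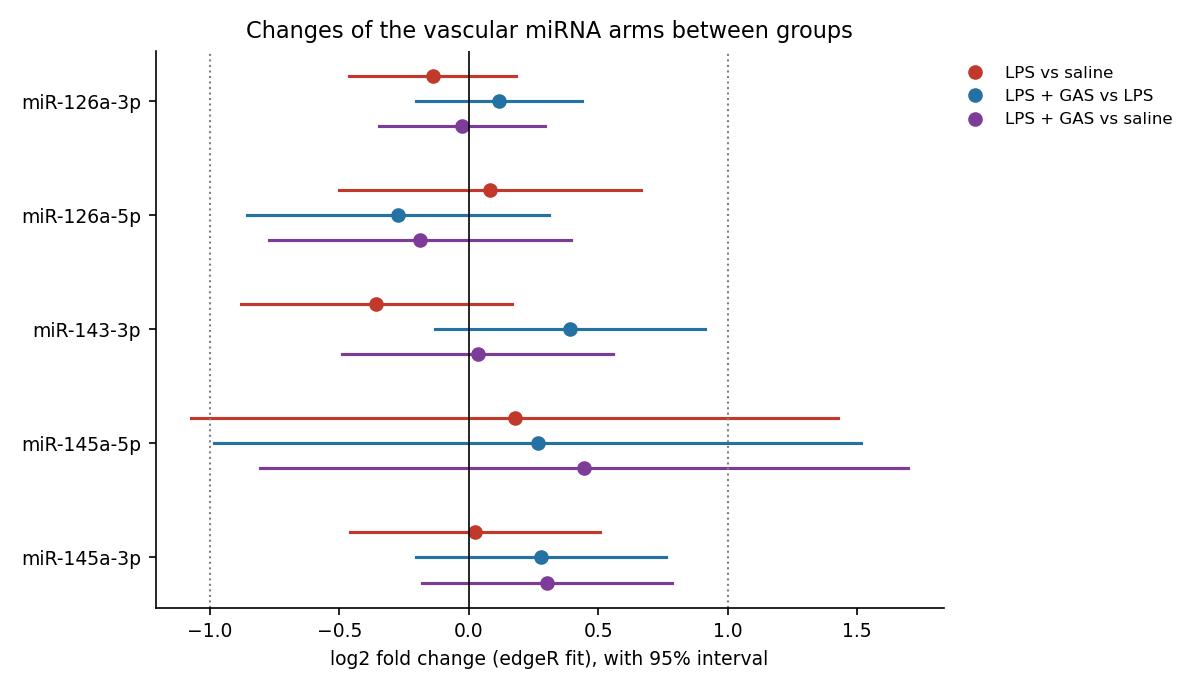
Log2 fold change (horizontal axis) of each arm in the 3 comparisons, with points for the edgeR estimate, bars for its 95% interval and dotted lines at a log2 fold change of 1 in either direction. All 15 intervals include 0, and those of miR-145a-5p are the widest.

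Ratios taken within a library do not depend on its total or on the scaling. MiR-126a-3p had 22.9 to 39.5 times as many reads as miR-126a-5p, with a median of 32.5. Saline replicates gave 37.4, 24.3 and 32.5, LPS replicates 22.9, 39.5 and 23.2, and LPS + GAS replicates 38.1, 37.2 and 29.5. The LPS group held both ends of this range. The 5p arm of Mir145a outnumbered its 3p arm 3.24 to 6.62 times in 7 libraries, but 12.7 times in LPS replicate 2 and 12.2 times in LPS + GAS replicate 1. The saline replicates gave 6.62, 5.55 and 4.04. The other LPS libraries (3.55 and 3.64) and LPS + GAS libraries (3.24 and 3.48) were below this range, so that both LPS-injected groups had values on either side of it.

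The products of the shared cluster did not keep a fixed ratio either. MiR-143-3p had 49.0 to 72.3 times the reads of miR-145a-5p in 7 libraries, and 18.0 and 18.3 times in the same LPS replicate 2 and LPS + GAS replicate 1. The ratio of the endothelial miR-126a-3p to miR-143-3p ran from 2.73 to 4.83. Saline replicates gave 2.96, 3.65 and 4.83, LPS replicates 4.12, 4.45 and 4.21, and LPS + GAS replicates 4.12, 4.01 and 2.73. The LPS libraries were thus close together, inside the range of the saline group. All 12 comparisons of these 4 ratios overlapped between groups, with two-sided exact permutation p-values of 0.2 to 1 and adjusted values of 1. The smallest p that 3 against 3 libraries can give is 0.1. In exp values, miR-126a-3p over miR-143-3p reached it for LPS + GAS against LPS, where the ratios did not overlap (2.67, 2.61 and 1.92 against 2.76, 2.88 and 2.70).

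**Figure D3:**
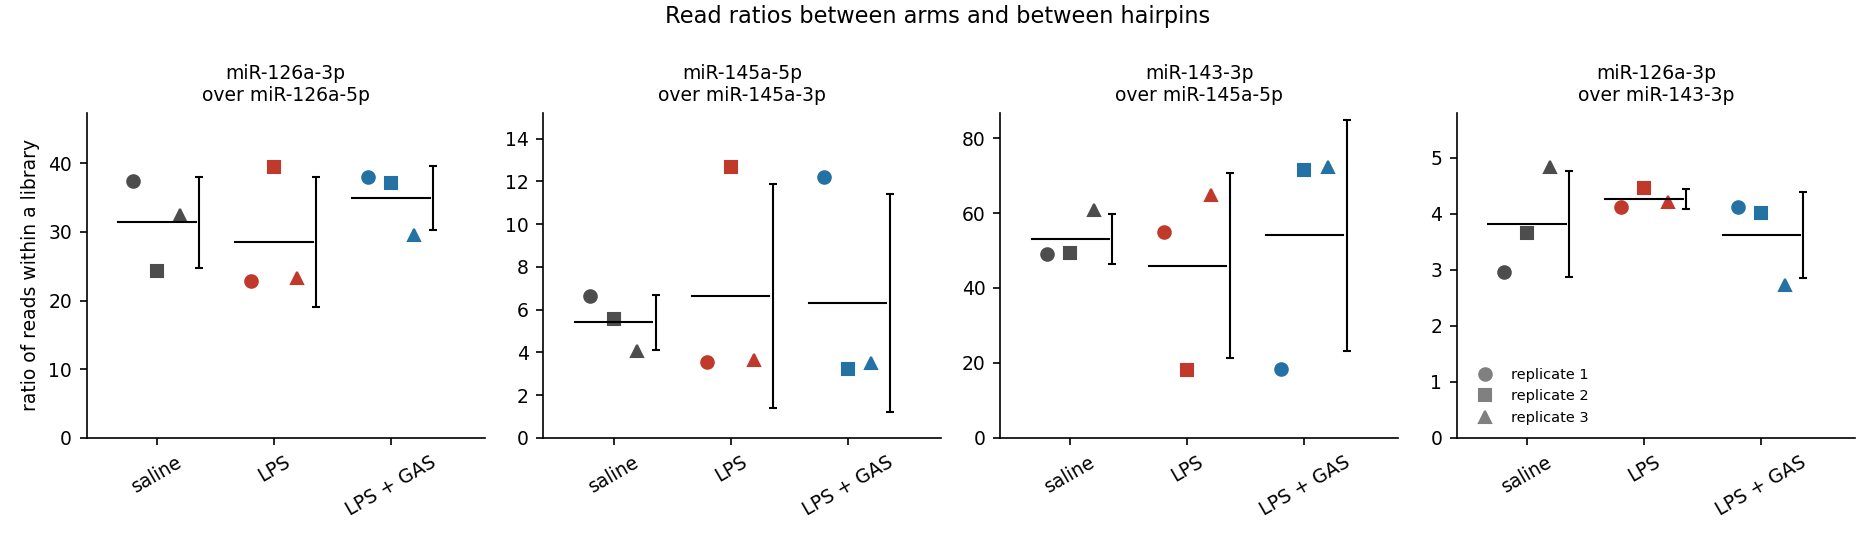
Ratio of reads within each library (linear axes from 0) for both arms of Mir126a, both arms of Mir145a, the products of the Mir143 and Mir145a cluster, and the 2 main vascular miRNAs; symbols mark the replicate, lines the mean and bars the SD. LPS replicate 2 and LPS + GAS replicate 1 stand apart in the panels with miR-145a-5p, at 12.7 and 12.2 over miR-145a-3p.

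The arms were also compared with each other across the 9 libraries, over 10 pairs. MiR-143-3p and miR-145a-3p, both of the smooth muscle cluster, had the highest correlation of log2 CPM (Pearson r = 0.77, permutation p = 0.0143, adjusted p = 0.143; Spearman rho = 0.65, permutation p = 0.0666, adjusted p = 0.666). Without the 2 libraries farthest from the median of miR-143-3p, LPS + GAS replicate 3 and saline replicate 1, r was 0.60. MiR-143-3p and miR-145a-5p, from the same cluster, had r = -0.0044 (permutation p = 0.993). The arms of Mir126a had r = 0.19 (permutation p = 0.624) and those of Mir145a r = -0.10 (permutation p = 0.789). MiR-126a-5p and miR-145a-5p had r = -0.66 (permutation p = 0.0548, adjusted p = 0.274), which was -0.49 without LPS replicates 2 and 3. No pair passed the adjustment. These values ignore the groups. For deviations from the group means, r was 0.89 for miR-143-3p and miR-145a-3p and -0.049 for miR-143-3p and miR-145a-5p. It was 0.33 for the arms of Mir126a, -0.27 for those of Mir145a and -0.65 for miR-126a-5p and miR-145a-5p. No test was run on the deviations.

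For each arm, the 3 other miRNAs with the most similar profile were found among 368 with a mean of at least 10 CPM, as a description over the same 9 libraries. The nearest to miR-126a-3p were miR-449a-5p (r = 0.94), miR-191-5p (0.85) and miR-93-5p (0.83), and to miR-126a-5p they were miR-30e-5p (0.85), miR-671-5p (0.82) and miR-136-5p (0.82). MiR-143-3p was nearest to miR-15b-5p (0.90), miR-1a-3p (0.84) and miR-25-3p (0.81). MiR-145a-5p was nearest to miR-574-3p (0.85), miR-92b-3p (0.84) and miR-324-5p (0.79). MiR-145a-3p was nearest to miR-203-3p (0.85), miR-421-3p (0.83) and miR-22-3p (0.82). None of these 15 miRNAs was another of the 5 vascular arms. Of the lists described below, miR-449a-5p is on that of multiciliated cells and miR-1a-3p on that of mural and mesenchymal cells. Each of these values was picked as one of the highest among 368.

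LPS replicate 2 and LPS + GAS replicate 1, the 2 libraries high in miR-145a-5p, were also compared with the others in base composition, a comparison added after the values were seen. Over 116 other tested miRNAs with less than 40% G and C, the median deviation from the mean of the 9 libraries was -0.15 and -0.098 on the log2 scale in these 2 libraries, the 2 lowest of the 9. Over 315 with at least 50% G and C it was 0.085 and 0.051, inside the range of the other libraries (up to 0.099 in saline replicate 3). Over all 623 other tested miRNAs, the correlation of G and C content with the deviation was 0.19 in LPS replicate 2 and -0.028 in LPS + GAS replicate 1. MiR-145a-5p is 52.2% G and C, miR-145a-3p 36.4% and miR-126a-5p 38.1%. The part of base composition in the high values was not tested.

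Other miRNAs studied in vascular cells were taken as a list of 13 for endothelium, with miR-23, miR-27, miR-24, miR-221 and miR-222 among them, and a list of 8 for mural and mesenchymal cells. They were not chosen as particular to these cells, and the cells they came from in this tissue were not tested. Of the endothelial list, 13 of 13 were tested and 0 were called in any comparison (0%, 0% and 0.159% of all miRNAs). In the 3 comparisons, in the order above, groups separated for 0, 2 and 1 of the 13. Of all miRNAs, 3.82%, 8.6% and 7.32% separated. Log2 fold changes of the list had medians of -0.063, 0.15 and 0.085 in the same order, beside -0.045, 0.0030 and -0.028 for all tested miRNAs. MiR-10b-5p had the highest value of the list, a log2 fold change of 1.19 in LPS + GAS vs saline (SE 0.51, edgeR adjusted p = 0.998), at a mean of 8.31 CPM. The list summed to 20697 to 23355 CPM after saline, 18420 to 21680 CPM after LPS and 18409 to 20205 CPM after LPS + GAS. In the LPS + GAS group every library was below every saline library in this sum. MiR-24-3p, the most abundant of the list, was at 4650, 9781 and 8450 CPM after saline and 5528, 3880 and 5245 CPM after LPS + GAS. Without it, a sum added after the values were seen, the saline and LPS + GAS groups overlapped (12625 to 16049 and 14530 to 14962 CPM). Of the 13 log2 fold changes in LPS + GAS vs saline, 8 were above 0, against 277 of all 628.

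Of the mural and mesenchymal list, 7 of 8 were tested and 0 were called (0%, 0% and 0.159% of all miRNAs). Groups separated for 0, 2 and 0 of the 7 in the 3 comparisons, against 3.82%, 8.6% and 7.32% of all miRNAs. Log2 fold changes had a median of -0.21 for LPS vs saline, with 6 of 7 values below 0, and of 0.51 for LPS + GAS vs LPS, with 5 of 7 above 0. Of all 628 miRNAs, 361 were below 0 in the former and 318 above 0 in the latter. For LPS + GAS vs saline the median of the list was 0.086. The members with the largest values were miR-199a-5p and miR-199a-3p, 2 arms of a miRNA of mesenchymal cells, at means of 32.5 and 9.06 CPM. Their log2 fold changes were -0.70 and -0.51 for LPS against saline and 0.78 and 0.90 for LPS + GAS against LPS (edgeR adjusted p of 0.992 in the former and 0.903 in the latter). The corresponding values of miR-143-3p were -0.36 and 0.39. The comparisons share the LPS libraries, which by itself favours opposite signs.

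Marker miRNAs of other cells were set beside the vascular arms, first those of erythrocytes (miR-451a, miR-144-3p, miR-144-5p, miR-486a-5p and miR-486b-5p, the last pair with equal values). None of the 5 was at 0 in all libraries. Their summed level was 4606 to 6221 CPM in the LPS + GAS group, above every saline library (2065 to 4316 CPM) and every LPS library (2189 to 3273 CPM). The sum rested mainly on miR-451a, at a mean of 3647 CPM, with the others at 2.17 to 43.1 CPM. The log2 fold changes of all 5 markers were above 0 in LPS + GAS vs LPS (318 of all 628 miRNAs), with a median of 1.04, but 0 of 5 were called. Group values separated for 1 of the 5 in this comparison and for 1 of the 5 in LPS + GAS vs saline (8.6% and 7.32% of all miRNAs). In LPS vs saline all 5 were below 0 (361 of all 628 miRNAs), with a median of -0.36. There 2 of the 5 separated, both lower after LPS (3.82% of all miRNAs separated), and 0 were called. LPS vs saline and LPS + GAS vs LPS share the LPS libraries, which by itself favours opposite signs. Choroid plexus miRNAs (8 of 8 detected) summed to 11829 to 55804 CPM after LPS + GAS, 9258 to 21992 CPM after LPS and 9255 to 28994 CPM after saline. In the same order, those of multiciliated cells (5 of 5 detected) summed to 443 to 3291, 418 to 963 and 301 to 1609 CPM, and those of leukocytes and microglia (4 of 4 detected) to 3678 to 5597, 2569 to 6226 and 4930 to 5325 CPM. The choroid plexus sum rested mainly on miR-204-5p, at a mean of 19222 CPM, with the others at 0.548 to 832 CPM. The leukocyte and microglia sum rested mainly on miR-150-5p, at a mean of 4795 CPM, with the others at 8.39 to 14.6 CPM. In LPS + GAS vs LPS the log2 fold changes of this list ran from 0.042 to 1.11 (median 0.27), with 0 of 4 called. The sums of these other lists overlapped between groups. The 5 vascular arms summed to 19965 to 21028 CPM after LPS + GAS, 16418 to 20686 CPM after LPS and 18609 to 22910 CPM after saline, and overlapped as well. The part of blood and choroid plexus in the vascular values was not tested.

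**Figure D4:**
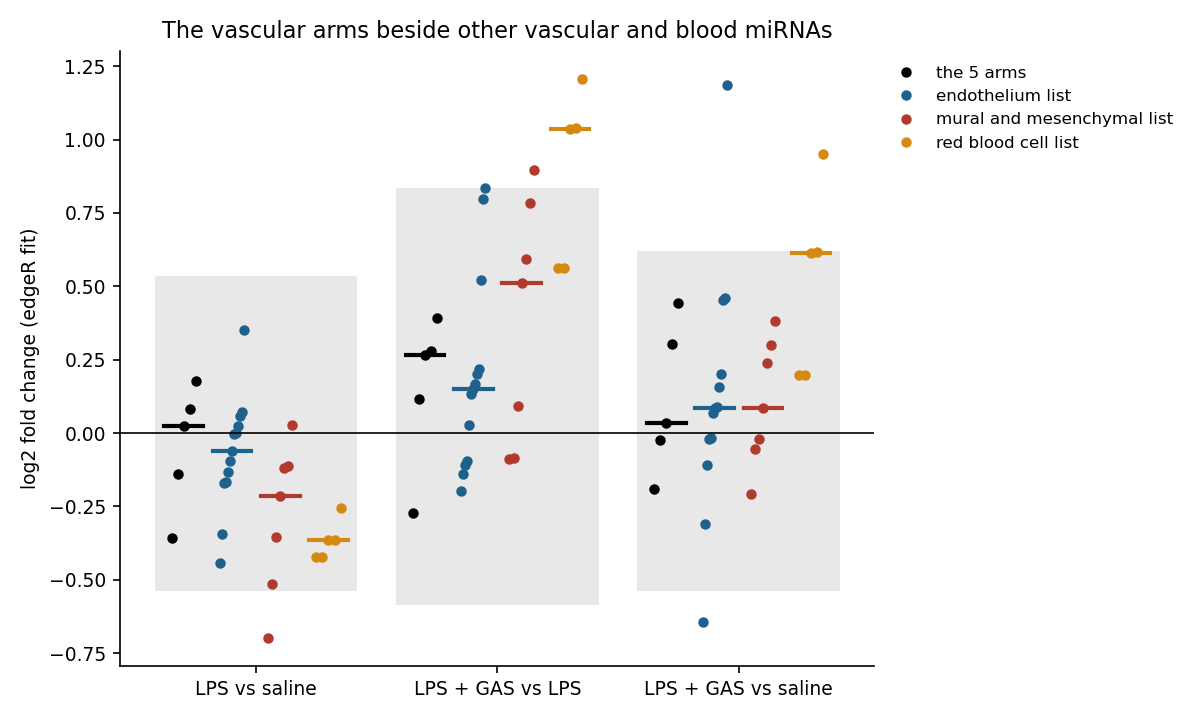
Log2 fold changes (vertical axis) of the 5 arms and of the miRNAs of the endothelial, mural and mesenchymal, and red blood cell lists in the 3 comparisons; points are miRNAs, short lines are medians, and grey bands hold the 5th to the 95th percentile of all 628 tested miRNAs. The 5 arms stay within the grey band in all comparisons, whereas the red blood cell list has a median of 1.04 in LPS + GAS vs LPS.

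Beside each read count the table gives an exp value, whose meaning no source used here states. It was never above the read count (0 of 13032 values) and fell further below it as reads rose. The exp value was 50.6% to 56.1% of the reads for miR-126a-3p and 74.2% to 83.5% for miR-143-3p. It was 95.4% to 97.8% for miR-126a-5p, 98.8% to 100% for miR-145a-5p and 99.4% to 100% for miR-145a-3p. The levels of the 2 abundant arms therefore depended on which value was used, while the rarer arms hardly changed. The highest library exceeded the lowest 1.28 times in reads of miR-126a-3p and 1.17 times in its exp values. The ratio of miR-126a-3p to miR-126a-5p was 22.9 to 39.5 in reads and 12.7 to 21.7 in exp values. With the exp values in place of reads, 0 of the 5 arms were called in any comparison.

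**Figure D5:**
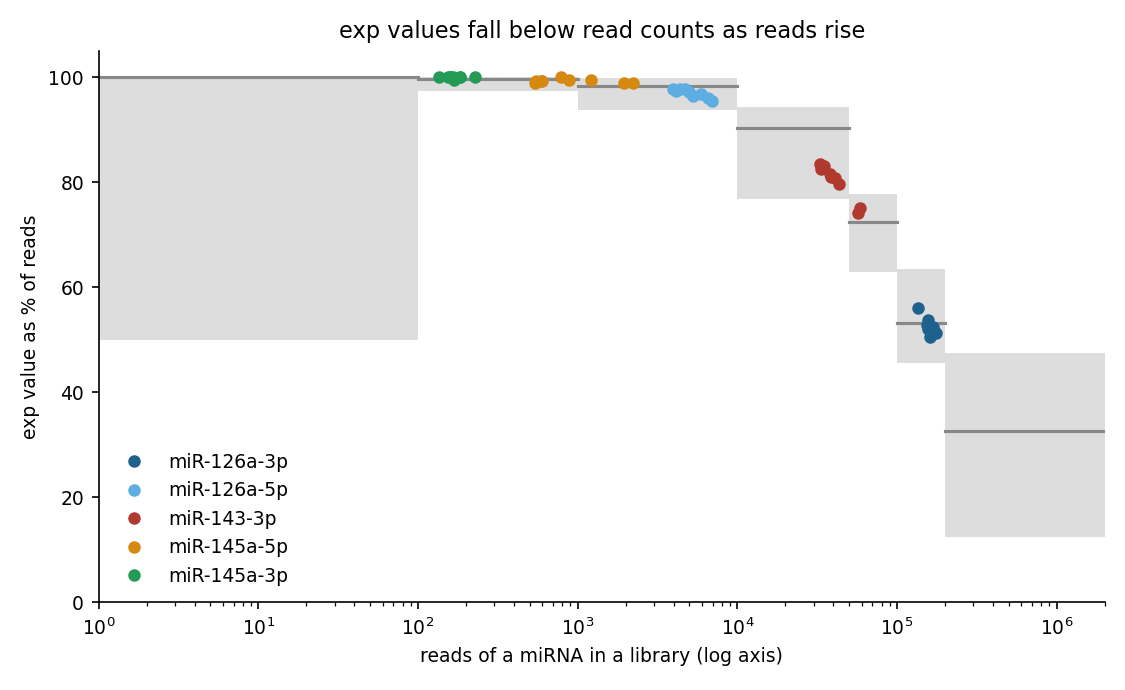
Exp value as a percentage of the read count (vertical axis) against the read count of a miRNA in a library (horizontal log axis); points are the 5 arms in the 9 libraries, grey areas run from the lowest to the highest value of all miRNAs in a range of reads, and grey lines are medians. MiR-126a-3p sits at 50.6% to 56.1%, inside the range of other miRNAs with as many reads.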

How the data were processed

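Small RNA libraries of mouse hippocampus were sequenced on the BGISEQ-500, 3 libraries per group. The authors deposited 1 table with read counts per mature miRNA, not normalized, and exp values, whole-number counts that never exceed them. For the aligner, the counter and the miRBase release, nothing is given in the sources used here. The submitters' processing notes name GRCm38.p6. The averages of groups and the authors' own comparisons (log2 fold changes, p-values and q-values) in the deposited table were not used. Columns were matched to samples by name, and 0 value columns belonged to no sample.

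The analysis used edgeR 4.0.16 in R 4.3.3. Rows reaching 10 reads in 3 or more libraries entered the tests (628 of 1448), and were scaled by TMM and fitted by glmQLFit with a mean per group over all 9 libraries. Each contrast was tested with glmQLFTest and its p-values adjusted by Benjamini and Hochberg's method across all 628. Ratios and correlations were tested by exact permutation in SciPy 1.17.1. As alternatives, the tests were repeated with size factors of DESeq2, no filter, at least 50 reads, the DESeq2 1.42.0 Wald test, voom of limma 3.58.1, the replicate block, exp values, only 2 groups, no minimum fold change, and each library left out. Leaving out 2 libraries together and the check of base composition were added after the data had been seen. The statistical steps were tested on simulated data. Libraries of a group were not duplicates: the chi-square per degree of freedom between them was 326 to 805.

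The 5 arms, the marker lists and the rule for named miRNAs (the arms, other rows of their hairpins, the 3 nearest profiles of each, shared seeds, and list members) were chosen with earlier results of these data known. Deviations from the group means correlated between libraries of equal number at 0.215 to 0.250 (3 pairs) in LPS + GAS vs saline. The values were 0.347, 0.202 and -0.246 in LPS vs saline and -0.170, 0.043 and -0.222 in LPS + GAS vs LPS. Libraries of unequal number were not compared, so these values cannot show a pairing, and no source used here names a shared batch.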

Additional observations from a re-analysis of the deposited data

How the results depend on the processing

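None of the 270 alternative values of the 5 arms was called, with adjusted p-values of 0.638 or more, and 22 of them turned in sign. MiR-126a-3p in LPS + GAS vs saline turned to 0.036 with DESeq2's size factors, 0.030 with no filter, 0.020 with at least 50 reads, 0.036 in the DESeq2 Wald test and 0.041 with exp values. Leaving out LPS replicate 2 and LPS + GAS replicate 1 together turned miR-145a-5p to -0.48 (LPS vs saline) and to -0.34 (LPS + GAS vs saline). Leaving out single libraries, the value in LPS vs saline ran from -0.14 to 0.37 for miR-126a-5p, from -0.45 to 0.54 for miR-145a-5p and from -0.052 to 0.18 for miR-145a-3p. In LPS + GAS vs LPS it ran from -0.53 to 0.93 for miR-145a-5p. In LPS + GAS vs saline it ran from -0.039 to 0.074 for miR-126a-3p, from -0.11 to 0.33 for miR-143-3p and from -0.30 to 0.80 for miR-145a-5p. The cause was not tested. The other 8 of 15 results of the arms kept their sign in every alternative run, although miR-143-3p in LPS vs saline fell to -0.067 without saline replicate 1. Without LPS replicate 2, the log2 difference in ratio for LPS vs saline turned from 0.047 to -0.56 for miR-145a-5p over miR-145a-3p and from -0.40 to 0.18 for miR-143-3p over miR-145a-5p. For LPS + GAS vs LPS they turned from -0.083 to 0.52 and from 0.18 to -0.39. In LPS + GAS vs saline, miR-143-3p over miR-145a-5p turned from -0.21 to 0.44 without LPS + GAS replicate 1. Leaving out other single libraries turned signs of ratio differences as well.

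Among all miRNAs, the number called in LPS vs saline was 1 in the DESeq2 Wald test, 1 without both libraries, 2 with no filter and 0 to 1 with each library left out, against 0. In LPS + GAS vs LPS it was 1 without both libraries and 0 to 1 with each library left out, against 0. The replicate block, which pairs same-numbered libraries, changed no call, with 0, 0 and 1 miRNAs called. Depth limits miR-145a-3p most, at 135 to 226 reads a library, where counting error was 7.66% of the level if each read is taken as a molecule.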
